A study of Mus musculus with 15 samples.

Results

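Complement was followed through 9 genes in mRNA-Seq libraries of the podocyte fraction of mouse kidney: the 3 chains of C1q (C1qa, C1qb and C1qc), the central components C3 and C4b, factor B (Cfb), the anaphylatoxin receptors C3ar1 and C5ar1, and C1 inhibitor (Serping1). They were chosen by symbol for their known part in the complement system, and all 9 were found among 46078 genes of the count table. All 9 passed the filter on low counts in each comparison of groups.

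The libraries came from male C57BL/6J mice. Young mice were 4 months old and received no injection (5 libraries). Aged mice started at 21 months and received weekly intraperitoneal injections of 12 mg/kg for 8 weeks, either of the isotype control antibody 2A3 (IgG2a, 4 libraries used) or of the anti-PD-1 antibody RMP1-14 (aPD1ab, 4 libraries used; the titles of this group give 47 days). Age and injection changed together between the young and IgG2a groups, so those factors cannot be told apart there. The fraction was pulled from a digest of kidney cortex with antibody-coated magnetic beads, and it is not a pure podocyte population. Another 2 columns of the table could not be tied to a group and were not used.

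The libraries held between 19912969 and 32717100 counts on genes. Podocyte markers (7 genes) were present in all libraries, and their summed level had a median of 1076 CPM (counts scaled to library size with TMM factors) in young, 338 CPM in IgG2a and 506 CPM in aPD1ab libraries. Macrophage markers (8 genes) summed to 1332 to 2424, 2045 to 5395 and 1498 to 2858 CPM, and proximal tubule markers (7 genes) to 4884 to 7866, 672 to 3640 and 3705 to 11106 CPM. Hepatocyte markers (Alb, Apoa2, Serpina1a and Fga, 4 genes) were low, at 9.22 to 14.7 CPM in young, 4.12 to 18.4 CPM in IgG2a and 13.2 to 77.1 CPM in aPD1ab libraries. The 4 neutrophil markers summed to at most 7.19 CPM, and Ly6g among them had at most 3 counts in every young and every IgG2a library. Replicate 1 of the IgG2a group stood apart from the other 3, with 2045 CPM of macrophage markers against 4749 to 5395 and 3640 CPM of proximal tubule markers against 672 to 1086. Calls are therefore given with and without this library. Because these markers set it apart, calls without it are not independent support for genes whose levels follow them. Replicate numbers only name libraries. The paper sequenced the fractions of each mouse separately, and p-values set a group difference against the spread between these libraries.

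Complement is a cascade of plasma and cell-surface proteins. C1q binds immune complexes and debris and starts the classical pathway, which cleaves C4 and then C3. Factor B carries the alternative pathway, C1 inhibitor blocks the proteases that C1q activates, and the small fragments C3a and C5a act on leukocytes through C3ar1 and C5ar1. Most plasma complement is made by the liver, whereas tissue macrophages are the main source of C1q. In the kidney, tubular epithelium is a known local source of C3 and of other components, and complement deposits mark several glomerular diseases.

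All 9 genes lie on the minus strand (GENCODE M21, GRCm38), and reads were summed over the exons of each gene. The C1q chains are neighbours within chr4:136880129-136898803, in the order C1qb, C1qc and C1qa. C3 is at chr17:57203970-57228136. C4b at chr17:34728380-34743882 and Cfb at chr17:34856374-34862518 belong to the major histocompatibility region. C3ar1 is at chr6:122847138-122856161, C5ar1 at chr7:16246743-16259540 and Serping1 at chr2:84765387-84775444. Counts of C4b are uncertain because C4a is a near-identical copy. Of the counts on C4a and C4b together, 77.8% to 98.8% were on C4b in each library. Cfb overlaps Gm20547, a read-through gene annotated on the same strand, so the reads of Cfb may be split.

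Upstream sequence was held for 5 of the 9 members, and those of the 4 that were higher in aged IgG2a mice (C1qb, C1qc, C3ar1 and C5ar1, as given below) are shown because they allow a look for shared motifs. Each line is the 250 bases before the annotated start from RefSeq, build GRCm38.p6, minus strand, read 5′ to 3′. GENCODE M21 places the starts of C1qc, C3ar1 and C5ar1 further upstream, at chr4:136893065, chr6:122856161 and chr7:16259540. Part of each of those windows therefore lies inside the gene as GENCODE M21 has it. The positions are chr4:136886201-136886450 for C1qb, chr4:136892915-136893164 for C1qc, chr6:122856158-122856407 for C3ar1 and chr7:16259339-16259588 for C5ar1. Capitals mark GAGGAA, the core bound by the myeloid factor PU.1, or its reverse complement TTCCTC.
C1qb: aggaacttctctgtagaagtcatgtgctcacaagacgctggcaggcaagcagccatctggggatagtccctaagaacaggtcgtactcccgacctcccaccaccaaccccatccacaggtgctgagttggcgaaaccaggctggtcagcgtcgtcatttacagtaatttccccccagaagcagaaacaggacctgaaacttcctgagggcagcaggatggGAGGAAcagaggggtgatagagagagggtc
C1qc: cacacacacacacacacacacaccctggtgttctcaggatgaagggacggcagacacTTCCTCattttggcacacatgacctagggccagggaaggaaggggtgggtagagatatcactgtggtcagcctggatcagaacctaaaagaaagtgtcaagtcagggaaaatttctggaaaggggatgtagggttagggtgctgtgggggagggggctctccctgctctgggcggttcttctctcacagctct
C3ar1: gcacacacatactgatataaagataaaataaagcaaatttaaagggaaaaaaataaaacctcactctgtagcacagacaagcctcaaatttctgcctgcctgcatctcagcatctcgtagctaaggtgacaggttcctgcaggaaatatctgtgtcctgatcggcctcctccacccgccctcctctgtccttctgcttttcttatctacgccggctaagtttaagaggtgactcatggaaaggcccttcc
C5ar1: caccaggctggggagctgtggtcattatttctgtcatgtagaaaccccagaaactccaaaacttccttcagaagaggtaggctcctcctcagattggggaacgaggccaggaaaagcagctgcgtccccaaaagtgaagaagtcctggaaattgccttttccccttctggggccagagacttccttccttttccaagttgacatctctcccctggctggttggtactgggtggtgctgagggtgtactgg
The motif starts 30 bases before the RefSeq start of C1qb, on the strand of the gene, and 193 bases before that of C1qc, on the opposite strand. It was searched on both strands over 300 bases, of which 50 follow the start, and was held by 28.28% of 32851 promoters of this length. A STAT motif (TTCNNNGAA, 8.298% of promoters), an interferon response motif (GAAA, any 2 bases and GAAA, 3.443%) and an NF-kB motif (GGGA, any base and TTTCC, 0.4109%) were searched in the same way. None of these 3 was in the window of any of the 5 members, C3 included, and C3 held no GAGGAA. No match overlapped another. A match describes letters only.

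Per kilobase of exon, the C1q chains were the highest of the 9 genes in all 3 groups. Mean levels per kilobase in young libraries were 351 ± 76.4 CPM for C1qa, 343 ± 80.6 for C1qb and 146 ± 41.2 for C1qc (SD, n = 5). C3ar1 at 17.1 ± 3.59 and C5ar1 at 14.2 ± 2.91 CPM per kilobase followed, and their ranges overlapped (11.8 to 20.1 and 9.04 to 15.8). C3 stood at 8.24 ± 2.26 and overlapped with C5ar1 in turn (5.63 to 11.9). Lower levels were those of Serping1 at 3.61 ± 0.562, Cfb at 2.41 ± 0.447 and C4b at 1.72 ± 0.746. The ranges of Serping1 and Cfb overlapped, as did those of Cfb and C4b. C4b was thus the lowest of the 9 in young libraries. In IgG2a libraries Cfb was the lowest instead, at 0.647 ± 0.554 CPM per kilobase (n = 4), and C4b had a mean of 9.81 ± 7.09. The proportion of the 3 C1q chains was narrow. The level of C1qb per kilobase was 0.868 to 1.05 times that of C1qa over all 13 libraries, and that of C1qc was 0.351 to 0.441 times that of C1qa.

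**Figure D1:**
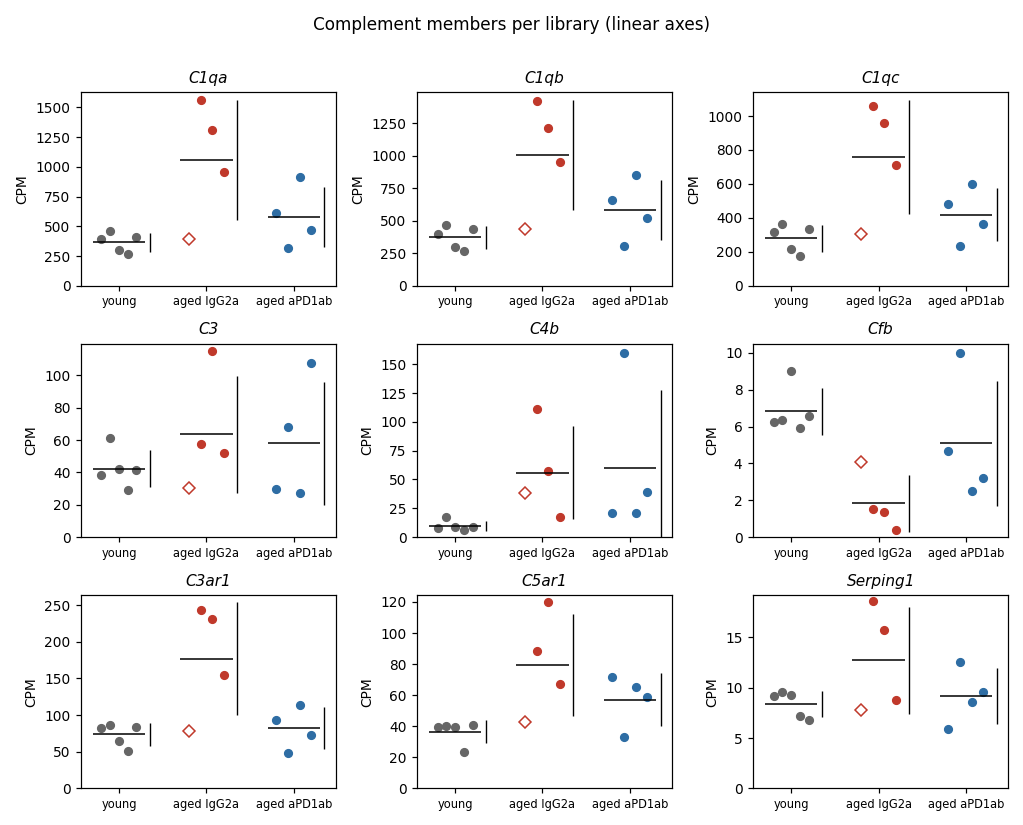
Each panel plots the normalised level (CPM, linear axis from 0) of 1 complement gene in every library of the young (n = 5), aged IgG2a (n = 4) and aged aPD1ab (n = 4) groups, with the mean as a horizontal bar and 1 SD as a vertical line cut at 0. Replicate 1 of the IgG2a group is the open diamond, which lies near the young libraries for C1qa at 397 CPM while the other 3 lie between 954 and 1564.

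The comparison of aged IgG2a with young mice asks how complement transcripts in this fraction differ between injected aged and uninjected young mice. C1q, C4b and both anaphylatoxin receptors were higher and Cfb was lower. Of the 9 members, 6 rose and 1 fell at an adjusted p under 0.05 (edgeR's quasi-likelihood test, Benjamini-Hochberg), against 17.4% of the 15953 genes tested, 9.05% higher and 8.38% lower. The median log2 fold change of the members was 1.35, and that of all genes tested 0.04. Without IgG2a replicate 1, all 9 passed (8 higher, 1 lower), against 45.6% of 16216 genes (22.1% higher, 23.5% lower). Over all libraries, DESeq2 called 7 members against 27.9% of genes, limma voom with quality weights 9 against 46.7%, and 1 edgeR fit over all groups 7 against 14%.

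C1qa stood at 393, 457, 301, 265 and 410 CPM in young libraries. In IgG2a libraries it was 397, 1564, 1310 and 954 CPM. Replicate 1 thus lay within the young range, and the other 3 lay above every young library. The log2 fold change of C1qa was 1.62 ± 0.36 (SE, adjusted p = 0.0212 by edgeR). C1qb measured 402, 467, 299, 264 and 434 CPM in young and 436, 1420, 1212 and 956 CPM in IgG2a libraries, with the same order of libraries. Its log2 fold change was 1.52 ± 0.33 (adjusted p = 0.0204 by edgeR). For C1qc the young libraries were at 314, 361, 217, 178 and 335 CPM and the IgG2a libraries at 306, 1057, 962 and 712 CPM. C1qc rose by a log2 fold change of 1.52 ± 0.36 (adjusted p = 0.0244 by edgeR). Without replicate 1 the log2 fold changes of the 3 chains were 1.88 ± 0.20, 1.75 ± 0.20 and 1.77 ± 0.23. The groups overlapped for each chain through replicate 1 alone. Without it, the 3 chains, C3ar1 and C5ar1 were higher without overlap, as were 18.4% of genes, and Cfb was lower without overlap, as were 29% of genes. The chains and both receptors follow the macrophage markers that set this library apart, as given below. Their separation without it is therefore not independent of that choice.

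The receptors moved in the same direction. C3ar1, the receptor for C3a, stood at 82.7, 86.7, 64.6, 50.8 and 83.7 CPM in young and at 78.7, 244, 231 and 154 CPM in IgG2a libraries. C3ar1 rose by 1.35 ± 0.31 on the log2 scale (adjusted p = 0.0237 by edgeR), and again replicate 1 was the library inside the young range. C5ar1, the main receptor for C5a, measured 39.8, 40.1, 39.4, 23.2 and 40.6 CPM in young and 42.7, 88.5, 120 and 67.5 CPM in IgG2a libraries. It was the 1 member whose IgG2a libraries all lay above the young ones, which held for 4.88% of the genes tested. Its log2 fold change was 1.20 ± 0.28 (adjusted p = 0.0242 by edgeR). Without replicate 1 the log2 fold changes were 1.58 ± 0.20 for C3ar1 and 1.40 ± 0.21 for C5ar1.

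C4b, the component cleaved after C1q activation, had the largest log2 fold change of the 9. Young libraries were at 8.13, 17.1, 8.60, 6.09 and 9.10 CPM and IgG2a libraries at 38.2, 111, 56.9 and 17.0 CPM. Only IgG2a replicate 4 fell below the highest young library, and replicate 1 did not stand apart here. The log2 fold change was 2.59 ± 0.49 (adjusted p = 0.0135 by edgeR). Leaving out each of the 9 libraries in turn, C4b passed the test every time, at adjusted p between 0.00411 and 0.0405. The change was 2.73 ± 0.54 on the log2 scale without replicate 1 and 1.99 without IgG2a replicate 2, its highest library.

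Cfb, the protease of the alternative pathway, went the other way. It measured 6.22, 6.35, 9.04, 5.92 and 6.56 CPM in young libraries and 4.06, 1.51, 1.34 and 0.403 CPM in IgG2a libraries, with no overlap (9.45% of genes tested were lower without overlap). The last of these values rested on 6 counts. Cfb decreased by 1.79 ± 0.46 on the log2 scale (adjusted p = 0.0298 by edgeR), and by 2.52 ± 0.33 without replicate 1 (adjusted p = 0.000174). In the same libraries the proximal tubule markers were lower, at 672 to 3640 CPM against 4884 to 7866 CPM in young libraries, and their part in the difference was not tested. These markers also set replicate 1 apart, so the change of Cfb without it is not independent of that choice.

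By edgeR C3 and Serping1 did not pass over all libraries, whereas limma voom called both. C3, the hub of all complement pathways, was at 38.6, 61.0, 41.9, 29.0 and 41.6 CPM in young and 30.4, 57.4, 115 and 51.7 CPM in IgG2a libraries, and the groups overlapped widely. Its log2 fold change was 0.67 ± 0.35 (adjusted p = 0.196 by edgeR), and without replicate 1 it was 0.89 ± 0.30 (adjusted p = 0.0409). Serping1 was at 9.12, 9.54, 9.32, 7.20 and 6.75 CPM in young and 7.73, 18.6, 15.7 and 8.74 CPM in IgG2a libraries. Its log2 fold change was 0.68 ± 0.27 (adjusted p = 0.102 by edgeR), and 0.86 ± 0.22 without replicate 1 (adjusted p = 0.00920).

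Calls over all libraries other than that of C4b were each lost with any 1 of several libraries left out. Leaving out young replicate 3 or 4 or IgG2a replicate 2 or 3 left 1 member called, leaving out young replicate 1 left 2 and leaving out IgG2a replicate 4 left 4, with adjusted p of at most 0.0898 for the 7 members called over all libraries. With any of those libraries left out, the number of genes called among all tested also fell, from 2780 over all libraries to between 553 and 1116. Without IgG2a replicate 1 it was 7397. No member changed direction with a library left out.

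**Figure D2:**
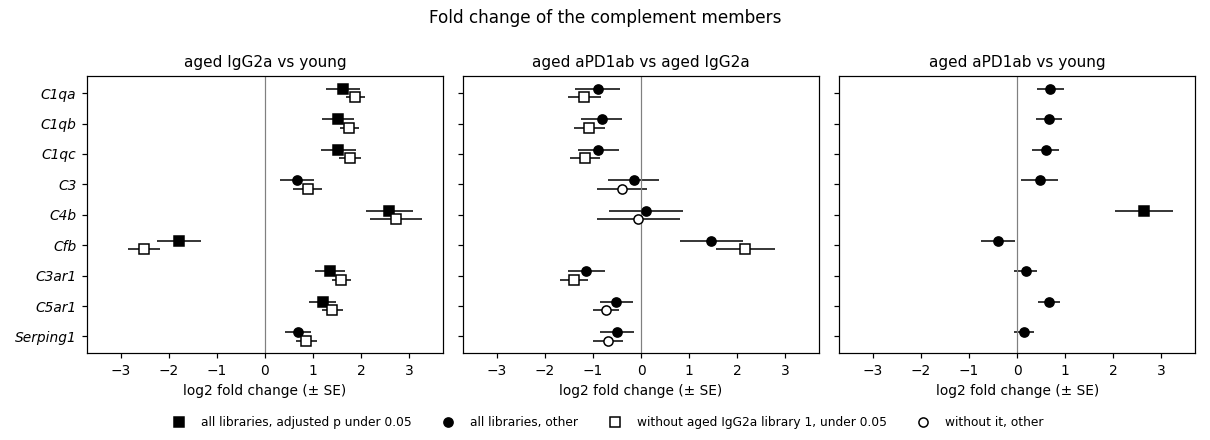
Log2 fold changes with their standard errors (edgeR) for the 9 members in the 3 comparisons, where squares mark an adjusted p under 0.05 and circles do not, filled over all libraries and open without IgG2a replicate 1. C4b lies at 2.59 and 2.63 in both aged groups against young and at 0.11 between the aged groups.

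The C1q chains and both receptors followed the macrophage markers from library to library. In bulk libraries fewer cells of a type and less RNA per cell cannot be told apart. The summed level of the 3 chains per 100 CPM of macrophage markers was 42.3 to 56.5 in young, 55.2 to 75.0 in IgG2a and 56.6 to 82.9 in aPD1ab libraries, a narrower spread than that of the chains themselves (707 to 4041 CPM). C3ar1 per 100 CPM of macrophage markers ran from 3.07 to 4.53 over all 13 libraries. For C5ar1 it was 1.65 to 2.04 in young, 1.42 to 2.22 in IgG2a and 2.20 to 2.77 in aPD1ab libraries. The ratios of the C1q chains and of C5ar1 were thus higher in every aPD1ab library than in any young library, for the chains only just. C4b per 100 CPM of macrophage markers was 0.386 to 0.707 in young, 0.358 to 2.07 in IgG2a and 0.747 to 10.7 in aPD1ab libraries, so C4b did not keep a fixed proportion. These ratios are descriptions, and the part of macrophages in the differences was not tested.

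Over the 13 libraries, the 10 pairs among C1qa, C1qb, C1qc, C3ar1 and C5ar1 had Pearson correlations of log2 CPM of 0.89 to 1.00, and 0.85 to 0.99 after the group means were removed. The correlations of Cfb with those 5 genes were -0.83 to -0.72. For C3 they were 0.30 to 0.41 and for Serping1 0.47 to 0.56. C4b had 0.34 to 0.45 over all libraries and -0.13 to -0.05 within groups. The points share libraries and depth, and cell makeup varied among them. Among 14052 genes compared, those most like C1qa were Cd300c2 (0.99), Tyrobp, Clec12a, Abhd12 and Aif1 (0.99 for each), most of which are known from myeloid cells. C3 was most like Pld1 (0.87), Nek2, Acsf2, Wwp2 and 3110082I17Rik. Serping1 was most like Gm26797 (0.90), Cp, Oas1c, Stat2 and Oas1g, of which the last 3 are known interferon-response genes.

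**Figure D3:**
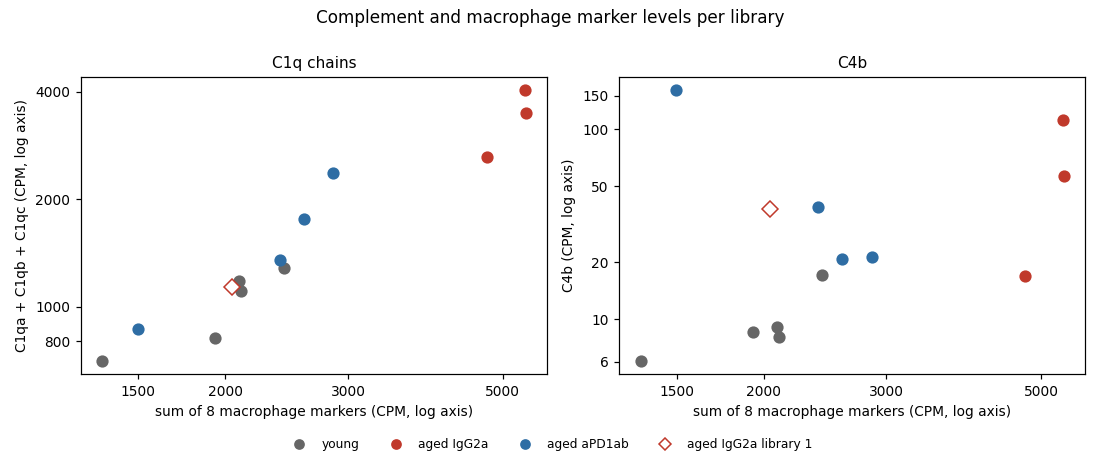
Each point is 1 library, with the sum of 8 macrophage markers on the x axis and, on the y axis, the sum of the C1q chains (left) or C4b (right), all in CPM on log axes. The C1q sum climbs with the markers from 707 to 4041 CPM across all groups, whereas the aPD1ab library with 1498 CPM of markers holds the highest C4b level (160 CPM).

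The comparison of aPD1ab with IgG2a mice asks what PD-1 blockade changed at old age. Over all libraries, 0 of the 9 members passed, against 0% of 15530 genes tested (lowest adjusted p = 0.102 by edgeR). At an unadjusted p under 0.05 there were 1 of the 9 (C3ar1) and 4341 of all genes. The members' median log2 fold change was -0.51, and that of all genes -0.01. Without IgG2a replicate 1, C1qa, C1qb, C1qc and C3ar1 were lower and Cfb was higher, 5 of 9 members, against 30.4% of 15770 genes (17.1% higher, 13.2% lower). DESeq2 called 1 member over all libraries (C3ar1), against 15.3% of genes. Limma voom with quality weights called 6, against 39.8% of genes, and 1 edgeR fit over all groups called 1 (C3ar1), against 17.5%. No member separated the groups over all libraries, where 6.61% of genes were higher and 4.91% lower without overlap.

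In aPD1ab libraries C1qa was at 614, 321, 917 and 472 CPM. The second of these lay within the young range, and all lay below the upper 3 IgG2a libraries. Its log2 fold change was -0.90 ± 0.47 (adjusted p = 0.233 by edgeR), and without IgG2a replicate 1 it was -1.18 ± 0.34 (adjusted p = 0.0345). C1qb at 659, 308, 854 and 518 CPM and C1qc at 483, 235, 597 and 363 CPM kept the order of libraries seen for C1qa. Their log2 fold changes were -0.82 ± 0.43 and -0.89 ± 0.43 over all libraries (adjusted p = 0.234 and 0.205 by edgeR). Without IgG2a replicate 1 they were -1.08 ± 0.32 and -1.16 ± 0.30 (adjusted p = 0.0369 and 0.0239). All aPD1ab libraries then lay below all IgG2a libraries for the 3 chains and C3ar1, as they did for 17.9% of genes.

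C3ar1 was at 93.3, 48.6, 114 and 73.4 CPM, with a mean of 82.4 ± 28.1 CPM (SD, n = 4) against 73.7 ± 15.5 CPM in young libraries (n = 5). It had the lowest adjusted p of the members, at a log2 fold change of -1.14 ± 0.39 (adjusted p = 0.124 by edgeR), and -1.39 ± 0.28 without IgG2a replicate 1 (adjusted p = 0.0117). C5ar1, at 71.8, 32.9, 65.2 and 58.8 CPM, did not pass either way, with log2 fold changes of -0.51 ± 0.34 and -0.73 ± 0.27 (adjusted p = 0.339 and 0.0748 by edgeR). The macrophage markers moved with these genes, at 1498 to 2858 CPM in aPD1ab libraries.

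Cfb was at 4.66, 10.0, 2.52 and 3.20 CPM in aPD1ab libraries, and IgG2a replicate 1 at 4.06 CPM lay inside this range. Its log2 fold change was 1.46 ± 0.65 (adjusted p = 0.180 by edgeR), and 2.17 ± 0.62 without that library (adjusted p = 0.0333), when the groups no longer overlapped (25.9% of genes were higher without overlap). The proximal tubule markers moved with it, at 3705 to 11106 CPM in aPD1ab libraries, and the highest value of both Cfb and these markers was in aPD1ab replicate 2. Since these markers also set IgG2a replicate 1 apart, the call of Cfb without it is not independent support. For C4b the aPD1ab libraries were at 20.7, 160, 21.3 and 39.0 CPM. The high library was again replicate 2, and the log2 fold change against IgG2a was 0.11 ± 0.77 over all libraries and -1.09 without it (adjusted p = 0.940 and 0.339 by edgeR). With this standard error a several-fold difference in either direction was not detectable.

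C3 at 29.4, 68.1, 27.1 and 107 CPM and Serping1 at 5.86, 12.6, 8.57 and 9.53 CPM overlapped with the IgG2a libraries. The log2 fold change of C3 was -0.15 ± 0.53 (adjusted p = 0.868 by edgeR) and that of Serping1 was -0.49 ± 0.35 (adjusted p = 0.368).

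Set against young mice, the aPD1ab group shows which levels differed from youth under blockade. Age, injection and blockade changed together between these groups and cannot be told apart. The comparison shares its aPD1ab libraries with the one above, and its young libraries with that of IgG2a and young mice. C4b was the 1 member of 9 that passed, against 22.4% of 15986 genes (12.4% higher, 9.97% lower). DESeq2 called 2 members against 28.9% of genes, limma voom 3 against 25% and 1 edgeR fit over all groups 1 against 17.8%. All 4 aPD1ab libraries lay above the young ones, as they did for 11.3% of genes (0 members were lower without overlap, against 10.7%), and the log2 fold change was 2.63 ± 0.61 (adjusted p = 0.0141 by edgeR). Without aPD1ab replicate 2 it was 1.47, and C4b passed with any 1 of the 9 libraries left out, at adjusted p between 0.00913 and 0.0386. With no filter on low counts the call was lost, at a log2 fold change of 2.61 (adjusted p = 0.0574 by edgeR). The log2 fold change of C1qa was 0.68 ± 0.28 (adjusted p = 0.104 by edgeR), that of C5ar1 0.66 ± 0.23 (adjusted p = 0.0643) and that of Cfb -0.40 ± 0.36 (adjusted p = 0.444). The log2 fold changes of C3ar1 and Serping1 were 0.18 ± 0.24 and 0.14 ± 0.21 (adjusted p = 0.627 and 0.673 by edgeR). Without aPD1ab replicate 2, 6 members passed (5 higher, 1 lower), against 22.5% of 16288 genes. The additional 5 were C1qa, C1qb, C1qc, C5ar1 and, lower, Cfb, and none of them passed with any other library left out. Replicate 2 had the lowest macrophage marker sum of its group (1498 CPM) and the highest proximal tubule marker sum (11106 CPM). Levels of these genes moved with those markers, so their calls without replicate 2 are not independent support.

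The rest of the pathway was read from a list of 46 other complement genes in 7 roles. Of these, 17 were too low to be tested in any comparison over all libraries, and Mbl2 among them was tested between the aged groups without IgG2a replicate 1. In IgG2a against young mice 29 were tested, and 6 rose (Fcna, Cfp, C6, C7, Vsig4 and Cd93) and 1 fell (C8a). This was 24.1% of the 29, against 17.4% of all genes tested (9.05% higher, 8.38% lower). The median log2 fold change of the 29 was 0.24. In aPD1ab against young mice the 7 that passed by edgeR were all higher (Fcna, Cfp, C6, Vsig4, C1ra, Cfi and Cpn1), again 24.1% of 29. Of all genes tested 22.4% passed, 12.4% higher and 9.97% lower. Between the aged groups 0 of 28 passed over all libraries by edgeR (11 at an unadjusted p under 0.05, 6 by DESeq2), and 13 of 30 did without IgG2a replicate 1, with 7 higher and 6 lower, 43.3% against 30.4% of all genes.

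Among the initiators outside C1q, Fcna differed most between aged and young mice. Ficolin A (Fcna), a recognition protein of the lectin pathway known from macrophages, was at 0 to 0.478 CPM in young libraries. It was at 20.1, 13.1, 7.70 and 13.2 CPM in IgG2a and at 10.6, 10.5, 6.72 and 11.4 CPM in aPD1ab libraries. The aged and young groups were far apart, and IgG2a replicate 1, near the young range for C1q, was the highest of all for Fcna. The log2 fold changes were 5.59 ± 0.53 and 5.08 ± 0.50 against young (adjusted p = 0.00127 and 0.00196 by edgeR), and the calls held with any single library left out. Without IgG2a replicate 1 the former was 5.34 ± 0.50. C1ra, a protease of the C1 complex, was at 3.30 to 5.77 CPM in young and at 7.15, 13.3, 6.22 and 13.6 CPM in aPD1ab libraries, with a log2 fold change of 1.13 ± 0.27 (adjusted p = 0.0155 by edgeR). The other members of the classical role tested, C1s1 among them as the most abundant per kilobase, did not pass in either aged group over all libraries.

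Properdin (Cfp), the stabilizer of the alternative convertase, was the most abundant other gene of its role. It was at 16.6 to 32.8 CPM in young, 49.6, 100, 92.9 and 73.0 CPM in IgG2a and 47.4, 74.2, 32.6 and 59.7 CPM in aPD1ab libraries. All IgG2a libraries lay above the young ones, and the highest young library was just above the lowest aPD1ab library. The log2 fold change was 1.85 ± 0.25 in IgG2a and 1.22 ± 0.25 in aPD1ab mice against young (adjusted p = 0.00476 and 0.00903 by edgeR), and the former was 2.01 ± 0.21 without IgG2a replicate 1. Cfp and Cfb, which act in the same pathway, thus went in opposite directions in IgG2a against young mice.

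Vsig4, the complement receptor CRIg of tissue macrophages, had at most 2 counts in any young library and 2 over all 5. It was at 8.03, 0.979, 3.91 and 1.21 CPM in IgG2a and at 0.843, 28.3, 1.18 and 1.62 CPM in aPD1ab libraries. Each aged library lay above every young one. With 3 counts per young library as the floor, the mean was at least 29.1-fold higher in IgG2a and at least 65.8-fold higher in aPD1ab libraries. Single libraries carried much of both, since the bounds were 16.8-fold without IgG2a replicate 1 and 10-fold without aPD1ab replicate 2. In aPD1ab against young mice Vsig4 passed by edgeR but was not called by DESeq2. The lowest library of each group was at least 7.17-fold and 6.17-fold above the floor. The receptor role also held Itgb2, the shared chain of complement receptors 3 and 4 and the most abundant of the role per kilobase, at 95.6 to 174 CPM in young and 95.6, 262, 244 and 293 CPM in IgG2a libraries. By edgeR Itgb2 did not pass over all libraries but did without IgG2a replicate 1 (log2 fold change 1.04 ± 0.17, adjusted p = 0.000704), and limma voom called it over all libraries. Cd93, a surface glycoprotein once described as a C1q receptor, rose by 0.86 ± 0.22 in IgG2a against young mice (adjusted p = 0.0305 by edgeR). Leaving out any library but IgG2a replicate 1 ended its call, with adjusted p of at most 0.0931.

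Terminal components were low. C7 was at 0.149 to 0.583 CPM in young and at 0.866, 2.08, 3.96 and 1.61 CPM in IgG2a libraries, with no overlap and a log2 fold change of 2.69 ± 0.50 (adjusted p = 0.0129 by edgeR), which was 2.96 ± 0.43 without IgG2a replicate 1. C6 was at 0 to 0.430 CPM in young and at 4.24, 1.96, 3.80 and 0.134 CPM in IgG2a libraries, where replicate 4 stayed in the young range. C6 rose by 3.93 ± 0.89 on the log2 scale (adjusted p = 0.0221 by edgeR), a call lost without young replicate 1 or 3 or IgG2a replicate 2 or 3 (without young replicate 2 it was not tested). In aPD1ab against young mice C6 had a log2 fold change of 3.06 ± 0.87, and of 1.93 without aPD1ab replicate 2, which ended the call (adjusted p = 0.0847 by edgeR), as did leaving out young replicate 1, 3, 4 or 5. C8a fell, from 1.67 to 3.88 CPM in young libraries to 1.25, 0.0816, 0.428 and 0.0672 CPM in IgG2a libraries (log2 fold change -2.39 ± 0.64, adjusted p = 0.0328 by edgeR), a call held in leave-one-out only without IgG2a replicate 1, at -3.73 ± 0.53. C8g, the most abundant of this role per kilobase, did not pass over all libraries in the pairwise edgeR fits. In IgG2a against young mice it was called, lower, by DESeq2, limma voom and the 1 edgeR fit over all groups.

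Of the soluble regulators, Cfi and Cpn1 split by library in the aPD1ab group. Clusterin (Clu), the most abundant soluble regulator, was at 404 to 713 CPM in young, 361 to 774 CPM in IgG2a and 280 to 526 CPM in aPD1ab libraries and passed in no comparison. Factor I (Cfi), the protease that inactivates C3b and C4b, was at 1.79 to 2.35 CPM in young and at 3.09, 29.6, 3.92 and 15.8 CPM in aPD1ab libraries. Carboxypeptidase N (Cpn1), which trims C3a and C5a, was at 16.1 to 27.0 CPM in young and at 25.1, 92.2, 26.6 and 86.5 CPM in aPD1ab libraries. Replicates 2 and 4 were the high libraries for both genes and were also the 2 with the most proximal tubule marker RNA of their group (11106 and 6298 CPM). The hepatocyte markers separated the same libraries, at 66.9 and 77.1 CPM in replicates 2 and 4 against 13.2 and 16.4 CPM in replicates 1 and 3. The part of either cell type in these levels was not tested. Against young mice Cfi rose by 2.69 ± 0.58 and Cpn1 by 1.44 ± 0.39 on the log2 scale (adjusted p = 0.0111 and 0.0251 by edgeR). Without aPD1ab replicate 2 the log2 fold change of Cfi was 1.92, and it passed with any single library left out. The call of Cpn1 was lost without young replicate 1, 2 or 4 or aPD1ab replicate 2 or 4.

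The membrane regulators, led by Cd59a per kilobase, gave 0 calls of 6 tested in each comparison over all libraries by edgeR (1 in IgG2a against young, 1 between the aged groups and 3 in aPD1ab against young mice at an unadjusted p under 0.05). DESeq2 called Cd59b, lower, in IgG2a against young mice, and Cr1l and Cd55, both lower, in aPD1ab against young mice.

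By edgeR, further genes passed without IgG2a replicate 1 that did not pass with it. In IgG2a against young mice 17 of the 29 then passed, 11 higher and 6 lower, against 45.6% of all genes. The additional higher genes were C1ra and the receptor genes C5ar2, Itgam, Itgax and Itgb2, and the additional lower genes were Mbl1, C8g, Cpn1, Cd59a and Cd59b. Over all libraries limma voom called all 10 of these, and DESeq2 called C1ra, C5ar2, Itgam, C8g, Cpn1 and Cd59b. Itgam, the alpha chain of complement receptor 3, shows the pattern, at 118, 104, 79.7, 70.7 and 94.7 CPM in young and 54.2, 184, 241 and 198 CPM in IgG2a libraries. Here replicate 1 lay below every young library while the others lay above. The log2 fold change of Itgam without replicate 1 was 1.23 ± 0.16 (adjusted p = 0.000180 by edgeR), and it was 0.95 ± 0.36 with it (adjusted p = 0.0932). Between the aged groups the 6 lower genes were Cd46, C5ar2, Itgam, Itgax, Itgb2 and Cd93, and the 7 higher ones were C2, Mbl1, Mbl2, C8a, C8g, Cfi and Cpn1. Hepatocyte markers were likewise at 4.12 to 5.56 CPM in these 3 IgG2a libraries and at 13.2 to 77.1 CPM in aPD1ab libraries, and their part in the higher genes was not tested. Over all libraries DESeq2 called C2, C8g, Cfi, Cpn1, Itgam and Cd93 between the aged groups, and limma voom called 12 of the 13, the exception being Mbl2, which was not tested there. Itgam stood at 79.7, 56.8, 80.2 and 77.3 CPM in aPD1ab libraries, a log2 fold change of -1.54 ± 0.16 from the 3 IgG2a libraries (adjusted p = 0.00640 by edgeR). C2, the protease that pairs with C4b, was at 4.54, 4.12, 2.41 and 3.09 CPM in IgG2a and 4.26, 16.8, 8.18 and 8.51 CPM in aPD1ab libraries, with the highest value in replicate 2 (log2 fold change 1.52 ± 0.47 without IgG2a replicate 1, adjusted p = 0.0422 by edgeR). Reads of C2 may be split with Gm20547, which overlaps it.

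**Figure D4:**
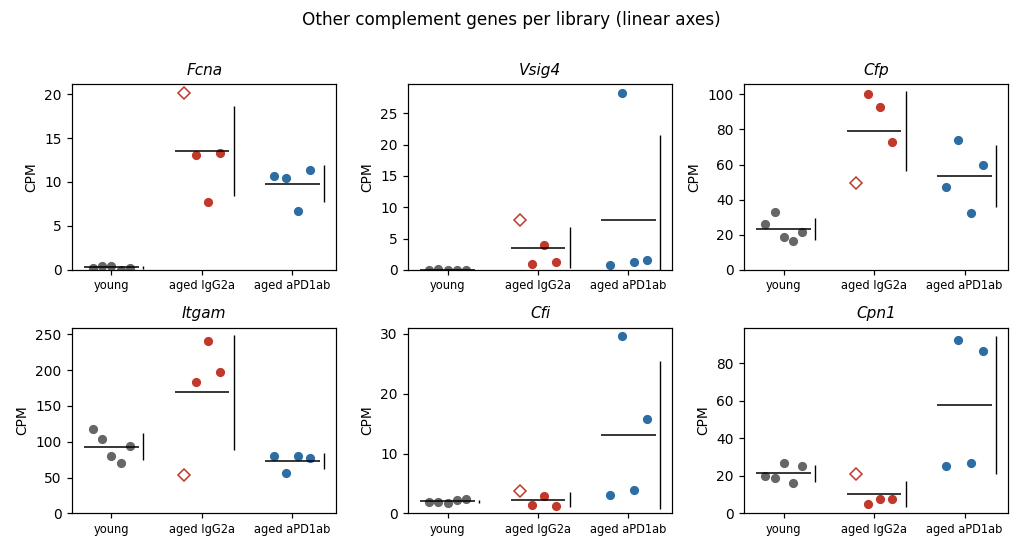
Levels (CPM, linear axes from 0) of Fcna, Vsig4, Cfp, Itgam, Cfi and Cpn1 in every library of the 3 groups, with mean bars, 1 SD lines cut at 0 and IgG2a replicate 1 as the open diamond. Fcna is at 6.72 CPM or more in every aged library and at most 0.478 CPM in young ones, whereas Cfi and Cpn1 are high in aPD1ab replicates 2 and 4.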

How the data were processed

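The authors made mRNA-Seq libraries of podocyte fractions and deposited raw counts of reads for each Ensembl gene. The submitters' processing notes name HISAT2, featureCounts and the builds mm10 and GRCm38, and the strand setting is not given in the sources used here. Groups come from the labels. Columns were tied to groups by library numbers printed in the principal component plot of the paper, and 2 columns of 15 were not used. Each pair of groups was fitted in R 4.3.3 with edgeR 4.0.16 (quasi-likelihood, robust, TMM, filterByExpr), with adjusted p under 0.05 by Benjamini-Hochberg over all genes tested. Alternatives used DESeq2 1.42.0, limma 3.58.1, other scaling, no filter, 1 fit over all groups and each library left out. Fits were tested on simulated data. Levels are TMM-scaled CPM. For correlations, CPM were taken to log2 after a prior count of 2 was added. The floor was 3 counts per library and covers counting error only. Members, gene lists and tests were chosen with earlier results of these data known. A gene of the complement list is not reported here and is left out of its counts. Named genes were the 9 members, other complement genes that passed in a comparison with or without IgG2a replicate 1, and the most abundant gene of each role. Of those that passed by edgeR only without that library, some are given by name alone.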

Additional observations from a re-analysis of the deposited data

Results flagged for a closer look

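Of 27 member-by-group sets of libraries, 4 had a library far from the others of its group, where chance gives about 1 in 20. C4b was at 17.1 CPM in young replicate 2, against 6.09 to 9.10 CPM in the other young libraries. C4b was at 160 CPM in aPD1ab replicate 2, against 20.7 to 39.0 CPM in the other aPD1ab libraries. Cfb was at 9.04 CPM in young replicate 3, against 5.92 to 6.56 CPM. C5ar1 was at 23.2 CPM in young replicate 4, against 39.4 to 40.6 CPM. The cause of these values was not tested.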

How the results depend on the processing

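No paired analysis was possible because the columns carry no replicate numbers shared between groups. Over the alternative values of 27 member results, 299 kept direction and side of the threshold, 25 newly passed, 35 no longer passed and 10 changed sign. The sign changes were all of differences that did not pass: in aPD1ab against IgG2a mice, C4b went from a log2 fold change of 0.11 to -0.63 with limma voom and to -0.05, -0.19 and -1.09 without IgG2a replicate 1, IgG2a replicate 4 and aPD1ab replicate 2, and C3 went from -0.15 to 0.30, 0.07 and 0.08 without IgG2a replicate 3, aPD1ab replicate 1 and aPD1ab replicate 3. With a library left out C4b ran from -1.09 to 0.65 and C3 from -0.62 to 0.30. In aPD1ab against young mice, Serping1 became -0.056, C3ar1 -0.030 and C3 -0.011 without aPD1ab replicates 2, 3 and 4, with upper ends of 0.30, 0.36 and 0.70. In IgG2a against young mice, members called ran from 1 to 9 when a library was left out, and other complement genes from 4 to 17, with 13 by DESeq2 and 17 by limma voom against 7. Between the aged groups, members called were 1 by DESeq2, 6 by limma voom, 1 in the fit over all groups and 0 to 5 with a library left out, and other complement genes 6, 14, 6 and 0 to 13. In aPD1ab against young mice, members called were 0 with no filter, 2 by DESeq2, 3 by limma voom and 1 to 6 with a library left out, and other complement genes 5 to 10 with a library left out. The cause was not tested. Groups of 4 and 5 libraries and the spread of IgG2a replicate 1 limit what could pass. Cfb, C6, C7, C8a, Vsig4 and, in young libraries, Fcna rest on low counts, and Serping1 rests on 130 to 455 counts per library.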
